A study of Mus musculus with 12 samples.

Results

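The genes described here code for the cytoskeleton and its motor proteins. They comprise actins, actin-related proteins and subunits of the Arp2/3 complex, alpha-actinins, filament-capping and monomer-binding proteins, tropomyosins and calponins, conventional and unconventional myosins, tubulins, kinesins, dyneins, the Map1 family, keratins, vimentin and spectrins. Members were taken by gene symbol, from a set of symbols put together with earlier results of these data known, and fell into 14 groups by role. Krt18 matches those symbols and was left out, and its difference, given with the keratins, was larger in size than that of any member. The rule found 91 of the 6786 genes on the array that had a clone assigned to a single gene. They were measured by 139 cDNA clones, and 61 of them by 1 clone only.

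RNA came from the renal medulla, the inner kidney that concentrates urine, of 3 water-restricted and 3 control mice. The labels name no strain, age, sex or length of restriction. RNA of each mouse was amplified, and each water-restricted mouse was hybridised directly against each control mouse on a two-colour array, which gave 9 pairs. In 3 of these pairs the dyes were also exchanged, for 12 arrays in all, 6 in which Alexa Fluor 546 marked the water-restricted mouse and 6 in which Alexa Fluor 647 did. The replicate is the mouse, and 3 against 3 mice limit the precision of every difference below.

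The deposited value is a log2 ratio of both dyes, and which dye is the numerator is not given. All ratios were turned to the orientation in which Alexa Fluor 546 marked water-restricted RNA. A positive difference therefore means more RNA in water-restricted mice if the ratio is Alexa Fluor 546 over 647, and less RNA if it is the reverse. The direction is unsettled, so values are given as positive or negative, and all signs would turn together. If instead the deposited ratios had already been turned by group, the dye term given further below would be the group difference. A mouse level below is a log2 value fitted from that mouse's arrays, set so that the 6 mice average 0. Fewer cells of a type and less RNA per cell cannot be told apart in whole tissue.

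Actin filaments form from monomers held in reserve by thymosins, branch at the Arp2/3 complex, end at capping proteins and contract with myosin II. Microtubules form from alpha- and beta-tubulin and serve as tracks for kinesins and dynein, while keratins and vimentin are the intermediate filaments of epithelial and mesenchymal cells. In collecting duct principal cells, vasopressin moves vesicles with the water channel aquaporin-2 to the apical membrane, a route that crosses the actin cortex and uses microtubule motors.

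No member passed a Benjamini-Hochberg adjusted p of 0.05 between the groups in limma's test over all genes, where the percentage called among all genes was 0, and the smallest adjusted p of a member was 0.702. At an unadjusted p under 0.05 there were 9 members, or 9.89% of the 91, beside 4.97% of all genes. Of these 9 members, 6 were positive and 3 negative. Among the 337 genes under that threshold, 218 were positive (3.21% of all genes) and 119 negative (1.75% of all genes). Across all members 42 differences were positive and 49 negative, with a median of -0.01, while 50.7% of all genes were positive. The median size was 0.14 for the members and 0.13 for all genes. Mouse levels of the groups did not overlap for 12 members, 13.2% of them, beside 9.8% of all genes. Only Tubb2b, Cnn1 and Arpc4 had 1 sign on all 12 arrays, which held for 2.05% of all genes. The count at an unadjusted p under 0.05 differed by orientation, with 4 members on the arrays that had water-restricted RNA in Alexa Fluor 546 (5.32% of all genes) and 17 on the others (8% of all genes). A fit with random mouse effects called 3 members at an adjusted p of 0.05, Tmsb4x, Cnn1 and Tubb2b, where 2.06% of all genes were called. It assumes that all genes share 1 ratio of mouse to array variance, a small one of 0.1 estimated over all genes.

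**Figure D1:**
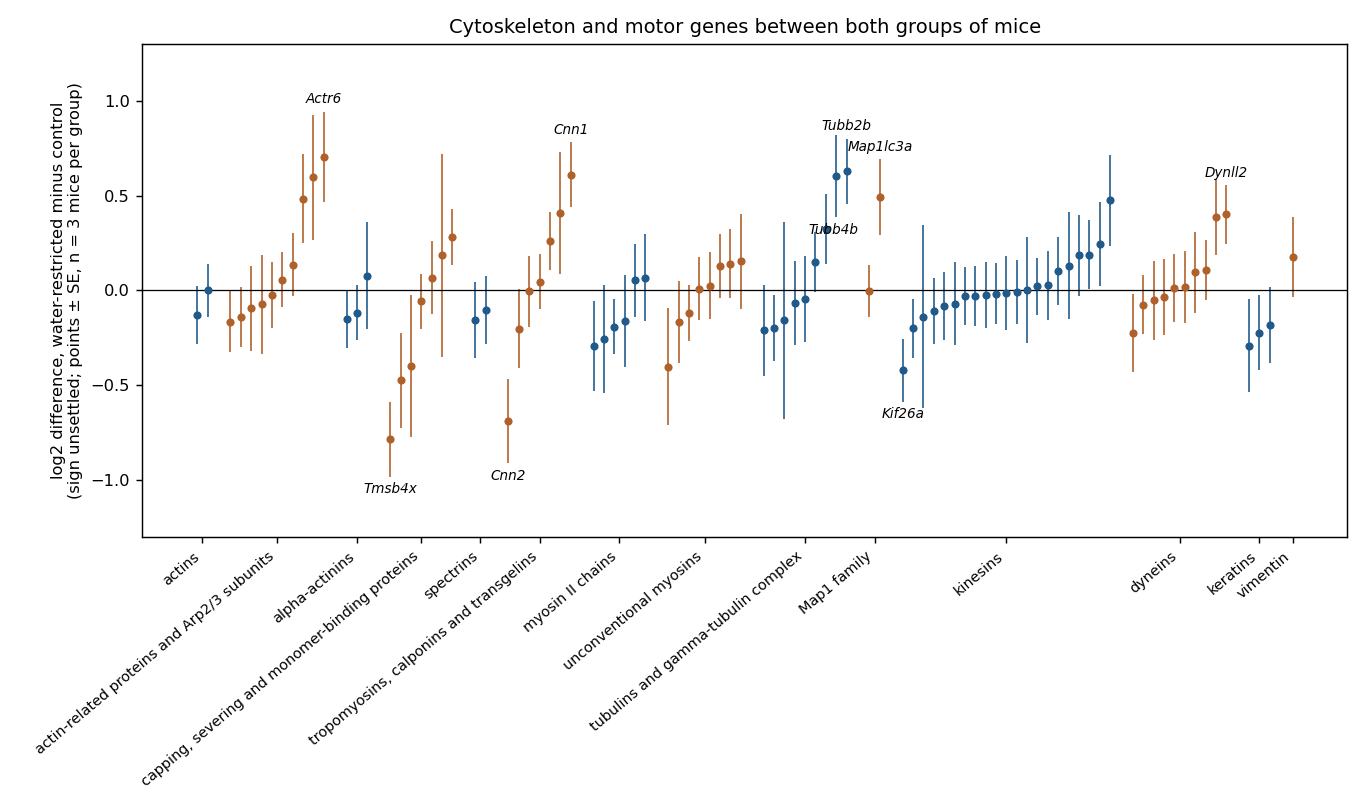
The log2 difference between water-restricted and control mice is plotted for the 91 members by role, each point with its standard error, and the 9 members at an unadjusted p under 0.05 are named. Of the 91 points 7 lie beyond 0.5 in size, and the named members have both signs.

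Among the proteins that hold actin monomers or end filaments, Tmsb4x had the smallest p of all members. It codes for thymosin beta 4, the main protein that sequesters actin monomers. Its levels were -0.28, -0.36 and -0.54 in water-restricted mice 1 to 3 and 0.21, 0.77 and 0.20 in control mice 1 to 3. All water-restricted mice lay below all control mice, and control mouse 2 stood highest. The difference was -0.79 (SE 0.20, 3 against 3 mice, limma unadjusted p = 0.00362, adjusted p = 0.702), a 1.72-fold difference in size. Array values ran from -1.78 through a median of -0.94 to 0.06, with 1 of the 12 positive.

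The other monomer and capping genes had smaller differences. Capg, a gelsolin-family protein that caps filaments, had a difference of -0.47 (SE 0.25) and Capza2, a subunit of capping protein, one of 0.28 (SE 0.15). Cfl1, cofilin, which severs filaments, had a difference of 0.07 (SE 0.19, 95% interval -0.37 to 0.50). Of the 7 genes in this role group, 3 were positive and 4 negative, and 1 had an unadjusted p under 0.05.

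Calponins bind actin and slow the myosin motor, and 2 of them stood among the 9 members, with opposite signs. Cnn1, the calponin of differentiated smooth muscle, had levels of 0.20, 0.20 and 0.52 in water-restricted mice and -0.48, -0.33 and -0.11 in controls. The groups did not overlap, and all 12 array values were positive, from 0.08 to 0.95 with a median of 0.66. The difference was 0.61 (SE 0.17, limma unadjusted p = 0.00707, adjusted p = 0.771), or 1.53-fold in size.

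Cnn2, a calponin of smooth muscle and non-muscle cells, had levels of -0.27, -0.57 and -0.19 in water-restricted mice and -0.08, 0.69 and 0.42 in controls. The lowest control lay just above the highest water-restricted mouse. Its difference of -0.69 (SE 0.22, limma unadjusted p = 0.0138, adjusted p = 0.771) came unevenly from its clones, with -1.12 (SE 0.46) for one and -0.26 (SE 0.25) for the other. Without the widest array of the series, that of mouse 2 in each group, it was -0.45. The tropomyosin, calponin and transgelin group as a whole held 4 positive and 3 negative members.

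The smooth muscle markers Acta2, Tagln and Myh11 were not among the measured genes. The other smooth muscle and pericyte markers measured were Smtn, Mylk, Pdgfrb, Cald1 and Kcnmb1, 5 of 14 listed. Of these, 1 was positive and 4 negative, and none had an unadjusted p under 0.05 in limma. Their mean level ran from -0.16 to 0.02 in water-restricted mice and from -0.16 to 0.24 in controls, so the groups overlapped. Their part in the calponin values was not tested.

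Genes of actin and the smooth muscle contractile apparatus often carry a CArG box, the site of serum response factor, near their start. RefSeq promoter windows from 250 bases before to 50 after the start (GRCm38.p6) matched 73 of the 91 members. The box was searched by its standard CArG consensus, which reads alike on both strands. It stood in 6 of them, or 8.2%, beside 1.42% of the 5489 array genes with a window and 1.81% of all 27025 genes with a window. The calponins and actins are classic genes of this site, and the stretches shown are those of the 6 members with a box. No window was matched for Actb, so its promoter was not searched. Each stretch is written 5′ to 3′ on the gene's strand, with the box in capitals and 20 bases on either side, except Arpc4, whose box opens the window.
Actg1 (chr11:120348556-120348605, minus strand): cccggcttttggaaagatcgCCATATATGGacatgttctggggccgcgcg
Cnn2 (chr10:79988524-79988573, plus strand): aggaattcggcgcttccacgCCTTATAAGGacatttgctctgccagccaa
Myl6 (chr10:128493030-128493079, minus strand): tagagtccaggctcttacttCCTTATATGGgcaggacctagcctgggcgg
Myl9 (chr2:156775283-156775332, plus strand): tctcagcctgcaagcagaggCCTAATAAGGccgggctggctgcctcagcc
Myo1e (chr9:70207298-70207347, plus strand): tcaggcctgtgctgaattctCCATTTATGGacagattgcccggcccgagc
Arpc4 (chr6:113377863-113377892, plus strand): CCTAATTTGGtgcccaacctgaggtcgggc

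Counted from the start, the box began at -90 in Actg1, -56 in Cnn2, -50 in Myl6, -161 in Myl9 and -32 in Myo1e. These 6 genes did not share a sign, with 3 positive and 3 negative. Cnn2 at -0.69 (SE 0.22) was the only one with an unadjusted p under 0.05 in limma, whereas Actg1 stood at -0.13 (SE 0.15), Myl9 at -0.16 (SE 0.24), Myo1e at 0.02 (SE 0.18), Myl6 at 0.07 (SE 0.23) and Arpc4 at 0.48 (SE 0.24). The windows of Cnn1 and Cnn3 held no such letters. A match is a run of letters and not a measured site.

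Of the actins, Actb had the most clones of any member, while Actg1 had 2. Actb, cytoplasmic beta-actin, had 10 clones and a difference of 0.00 (SE 0.14, 95% interval -0.32 to 0.32). Its single clones ran from -0.19 to 0.43. Actg1, cytoplasmic gamma-actin, had levels of -0.10, -0.08 and -0.01 in water-restricted mice and -0.01, -0.07 and 0.27 in controls, which overlapped, and its difference was -0.13 (SE 0.15, 95% interval -0.48 to 0.22). Actin genes are nearly identical in their coding parts, as are the beta-tubulins, so a cDNA clone of one can also bind RNA of another.

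Of the 10 actin-related and Arp2/3 genes, 5 were positive and 5 negative. Actr6, an actin-related protein of a nuclear chromatin-remodelling complex and not of the actin cortex, was the one with an unadjusted p under 0.05. Its levels were 0.30, 0.66 and 0.10 in water-restricted mice and -0.02, -0.79 and -0.25 in controls. The groups did not overlap, with mouse 2 of each group farthest out. The difference was 0.70 (SE 0.24, limma unadjusted p = 0.0178, adjusted p = 0.771), and it was 0.48 without the array that paired both of those mice.

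Arpc4, an Arp2/3 subunit, had 0.48 (SE 0.24, limma unadjusted p = 0.0737), and 0.31 without the widest array. Arpc1a, an alternative form of the p40 subunit, was the most negative of the group at -0.16 (SE 0.16). Without the widest array it was at -0.31 and Arpc1b, the other form of that subunit, at -0.45. Actr3, an actin-like core subunit of Arp2/3, had 0.60 (SE 0.33), and control mouse 2 stood apart from its other mice at -1.11. Alpha-actinins, which crosslink filaments, ran from -0.15 (SE 0.15) for Actn3 to 0.08 (SE 0.28) for Actn2, which was at -0.07 without the widest array.

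No myosin had an unadjusted p under 0.05 in limma. Of the 6 myosin II chains, 2 were positive and 4 negative, and none was positive without the widest array. Myh9, the heavy chain of non-muscle myosin IIA, stood at -0.29 (SE 0.24, 95% interval -0.84 to 0.25), and Myl6, an essential light chain, at 0.07 (SE 0.23, 95% interval -0.46 to 0.59), which was at -0.10 without the widest array. The 8 unconventional myosins ran from -0.40 (SE 0.31) for Myo5a, a vesicle motor, to 0.15 (SE 0.25) for Myo9a. Without the widest array Myo5a was at -0.14, and Myo1c, another unconventional myosin, was more negative at -0.29. Both spectrins, which line the membrane, were negative, and neither had an unadjusted p under 0.05.

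Among the tubulins and gamma-tubulin complex genes, 4 were positive and 5 negative, and 2 beta-tubulins had an unadjusted p under 0.05. Tubb2b had levels of 0.34, 0.09 and 0.51 in water-restricted mice and -0.31, -0.17 and -0.46 in controls. The groups did not overlap, and its array values were all positive, from 0.04 to 1.02 with a median of 0.73. Its difference was 0.63 (SE 0.17, limma unadjusted p = 0.00584, adjusted p = 0.771), or 1.54-fold in size.

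Tubb4b, a broadly expressed beta-tubulin, had levels of 0.26, 0.06 and 0.58 in water-restricted mice and -0.68, -0.21 and -0.02 in controls. The groups came close at water-restricted mouse 2 and control mouse 3. Its difference was 0.60 (SE 0.22, limma unadjusted p = 0.0237, adjusted p = 0.884), and its 3 clones gave 0.91, 0.72 and 0.18.

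Tubb5, the beta-tubulin with most clones, had a difference of -0.05 (SE 0.23, 95% interval -0.57 to 0.48), and -0.15 without the widest array, and its 7 clones ran from -0.29 to 0.37. Tubgcp2, a subunit of the gamma-tubulin ring from which microtubules start, stood at -0.21 (SE 0.24), the most negative of the group. Without the widest array it was at -0.09, and Tubb3, a beta-tubulin of neurons, was more negative at -0.29. Whether the beta-tubulins differ from each other was not tested, and cross-binding between them bears on each. One listed tubulin, Tubb2a-ps2, is annotated as a transcribed pseudogene. Its difference was -0.16, and 0.28 without the widest array, on which its value was -3.77.

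**Figure D2:**
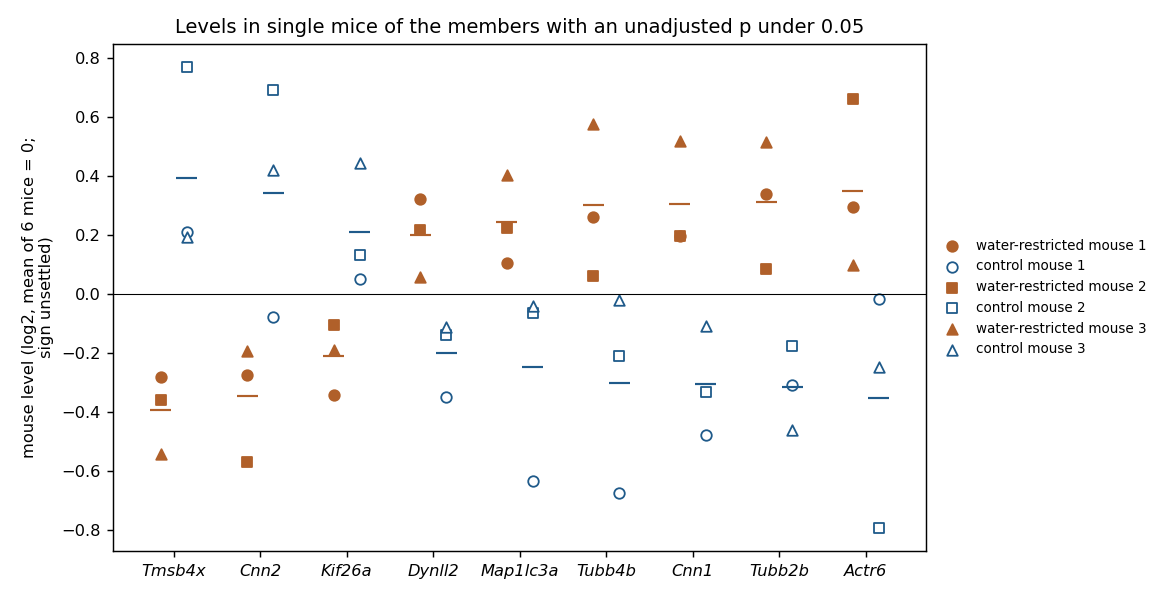
Fitted log2 levels of the 6 mice are plotted for the 9 members at an unadjusted p under 0.05, with water-restricted and control mice in separate colours and 0 as the mean of the 6. In each of the 9 the groups do not overlap, and the gap between them is narrow for Cnn2, Tubb4b and Actr6.

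The motors were the largest set, with 21 kinesins and 10 dyneins. Kinesins split into 9 positive and 12 negative with a median of -0.01. Kif26a, an atypical kinesin that does not walk along microtubules, had levels of -0.34, -0.10 and -0.19 in water-restricted mice and 0.05, 0.13 and 0.44 in controls. These did not overlap, and array values ran from -1.83 to 0.49 with a median of -0.62. The difference was -0.42 (SE 0.17, limma unadjusted p = 0.0336, adjusted p = 0.920).

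Kif5b, the heavy chain of conventional kinesin, had the most positive value of the kinesins at 0.47 (SE 0.24, limma unadjusted p = 0.0802). Its 3 clones gave 1.10, 0.32 and 0.00, and in the first of them control mouse 1 was at -1.76 and water-restricted mouse 3 at 1.46. On the single array of those mice the gene was at 2.12, where the other arrays of that orientation ran from -0.20 to 0.46.

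Of the dyneins, 6 were positive and 4 negative. Dynll2, a light chain that also binds myosin V, had levels of 0.32, 0.22 and 0.06 in water-restricted mice and -0.35, -0.14 and -0.11 in controls. The groups did not overlap, and the difference was 0.40 (SE 0.15, limma unadjusted p = 0.0310, adjusted p = 0.908). Dync1li1, a light intermediate chain that links the motor to cargo, stood at 0.39 (SE 0.20), but at 0.15 without the widest array, and at 0.82 and -0.19 in the respective dye orientations. Dync1h1, the heavy chain that holds the motor itself, stood at -0.22 (SE 0.21).

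In the Map1 family, Map1lc3a codes for LC3A, a protein first found on microtubules and now best known from autophagosomes. Its levels were 0.10, 0.23 and 0.40 in water-restricted mice and -0.63, -0.06 and -0.04 in controls, with control mouse 1 farthest from the rest. The difference was 0.49 (SE 0.20, limma unadjusted p = 0.0393, adjusted p = 0.945), and 0.32 without the widest array.

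**Figure D3:**
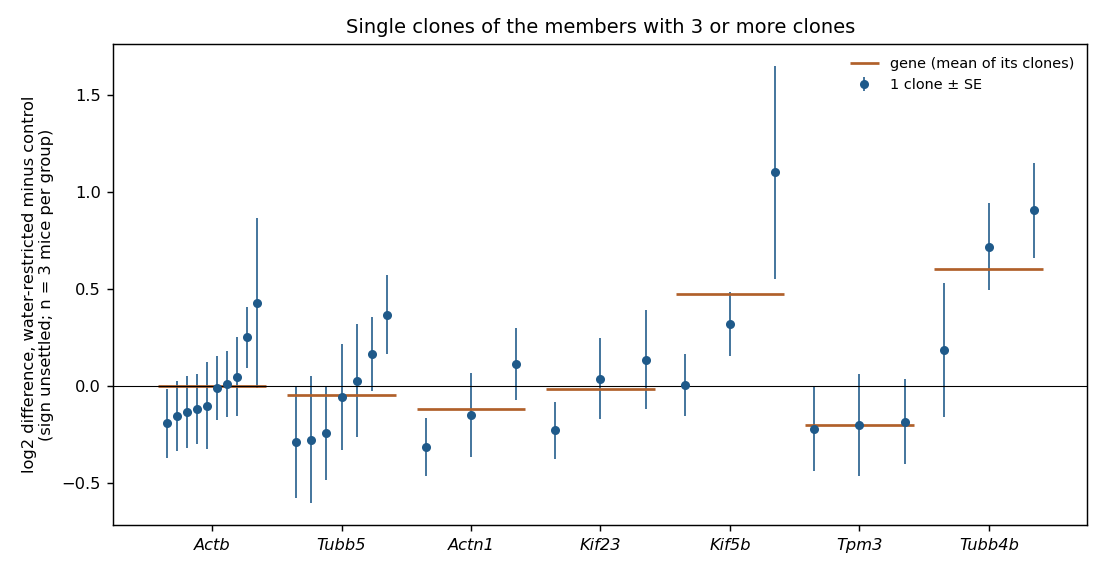
Log2 differences of single clones are plotted for the 7 members with 3 or more clones, beside the difference of the gene. The 3 clones of Kif5b spread from 0.00 to 1.10 and those of Tubb4b from 0.18 to 0.91, while the 10 clones of Actb lie between -0.19 and 0.43.

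All 3 keratins measured as members were negative, and none had an unadjusted p under 0.05. Krt8, Krt7 and Krt19 are keratins of simple epithelia such as the collecting duct. Their differences were -0.29 (SE 0.25), -0.22 (SE 0.20) and -0.18 (SE 0.20). That of Krt8 came unevenly from its 2 clones, with -0.003 (SE 0.25) for one and -0.58 (SE 0.29) for the other. Values of the 3 keratins lay far apart between the dye orientations. Where Alexa Fluor 546 marked water-restricted RNA, the values were 0.17 for Krt8, 0.16 for Krt7 and 0.17 for Krt19, and where Alexa Fluor 647 did, they were -0.76, -0.60 and -0.67. On those latter arrays limma's unadjusted p values were 0.0492, 0.0111 and 0.0114, and the adjusted ones 0.617, 0.476 and 0.476. Krt18, the partner of Krt8, which the choice of members left out, had -0.87 (SE 0.19, limma adjusted p = 0.553), with -0.38 and -1.41 in the respective orientations.

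The 5 principal cell markers measured, of 16 listed and with Krt18 among them, were all negative. Their mean level ran from -0.38 to -0.21 in water-restricted mice and from 0.20 to 0.44 in controls, and their part in the keratin values was not tested. Vim, the intermediate filament gene of mesenchymal cells, had levels of -0.19, 0.37 and 0.08 in water-restricted mice and 0.13, -0.42 and 0.03 in controls. These overlapped, and the difference was 0.17 (SE 0.21, 95% interval -0.31 to 0.66), and 0.07 without the widest array. The 9 fibroblast and interstitial markers measured had means from -0.17 to 0.06 and from -0.02 to 0.16 in the respective groups.

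The dye term measures how far each orientation lies from their shared group contrast, and for 14 members it passed an adjusted p of 0.05 in limma. They were 15.4% of the members, where 11.3% of all genes passed. Positive terms made up 12 of the 14, beside 564 of the 769 genes that passed (8.31% of all genes). With all 12 arrays weighted equally 8 members passed, where 6.62% of all genes did, and all 8 were among the 14. The residual of this test is between arrays and not between mice.

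Apart from Capzb, the largest of these terms was that of Dync1h1 at 0.72, whose group difference was 0.57 on arrays with water-restricted RNA in Alexa Fluor 546 and -1.02 on those with it in Alexa Fluor 647. Myl6 had 0.71 and -0.71, so that its mean close to 0 joins opposite values. Arpc5, an Arp2/3 subunit, had 0.45 and -0.63, and Actr3 had 0.12 and 1.02. Capzb, the beta subunit of capping protein, had a dye term of 1.04, and its value on the widest array was 4.80.

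If the deposited ratios had already been turned by group, 55 members would be positive and 36 negative, beside 59.4% of all genes that would be positive. In limma's test on mice, 5 members would then have an unadjusted p under 0.05, where 5.35% of all genes would, and none would pass the adjusted threshold. All 5 would be positive, beside 274 of the 363 genes under that threshold (4.04% of all genes). The 5 members would be Dync1h1 at 0.72, Myl6 at 0.70, Dync1li1 at 0.58, Arpc5 at 0.57 and Actr8, another nuclear actin-related protein, at 0.40, each with an adjusted p of 0.868. Which reading holds decides which members stand out.

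**Figure D4:**
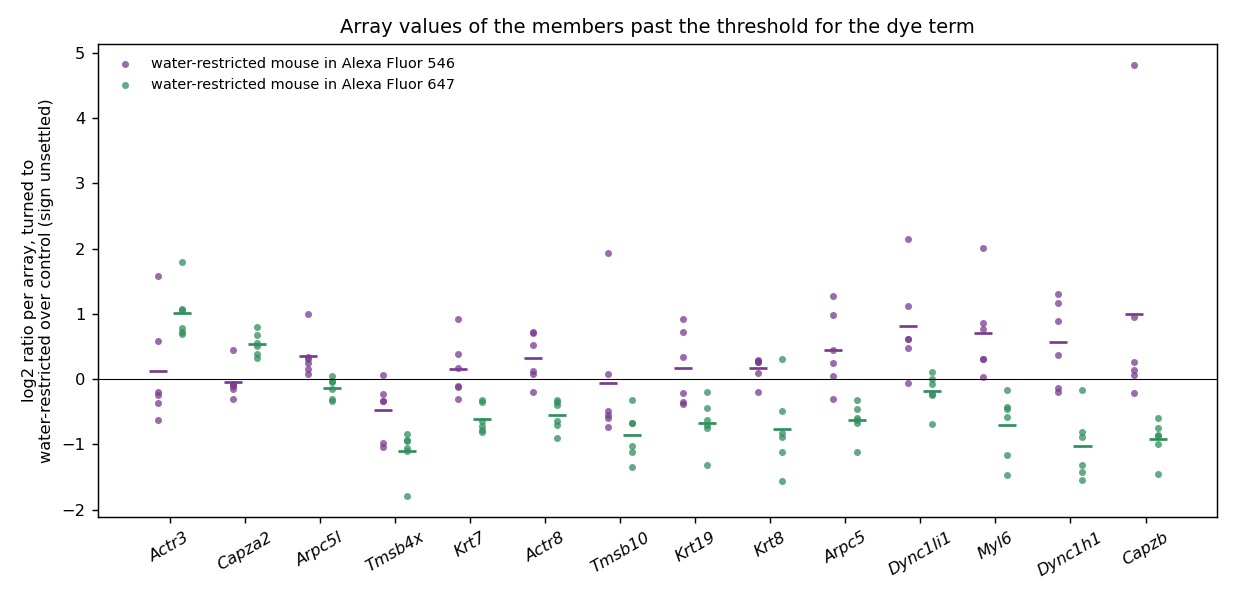
Array values (log2, turned to 1 orientation) are plotted for the 14 members with a dye term past an adjusted p of 0.05, separately for the 6 arrays of each dye orientation. For Myl6 and Dync1h1 the arrays of the different orientations lie mostly on different sides of 0.

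Mice within a group were compared through the arrays that share partners. Between mice of one group no member passed an adjusted p of 0.05 in limma's F-test, where 0.413% of all genes did, and 20 members (22.0%) had an unadjusted p under 0.05, beside 20.2% of all genes. Tpm4, a non-muscle tropomyosin that coats actin filaments, had the smallest p. Its level was 0.98 in water-restricted mouse 1 (F = 11.6, limma unadjusted p = 0.000961, adjusted p = 0.0847). Kif18a, a mitotic kinesin, was at 1.11 in control mouse 2 and 0.68 in water-restricted mouse 3. It was at -0.70 in control mouse 1 and -0.67 in water-restricted mouse 2. Its array values ran from -2.04 on the widest array to 2.19 for water-restricted mouse 3 against control mouse 1. Without the widest array 3 members passed, where 2.33% of all genes did. They were Tpm4 (F = 24.4, adjusted p = 0.0151), Capg (adjusted p = 0.0474) and Krt8 (adjusted p = 0.0495).

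The pairs with exchanged dyes were compared between their arrays, where the dye term enters with opposite signs after turning. After turning, the member values of water-restricted mouse 1 against control mouse 3 correlated at 0.409 between its arrays, those of water-restricted mouse 2 against control mouse 1 at -0.244, and those of water-restricted mouse 3 against control mouse 2 at 0.194, across 91 genes that share their arrays. Over all genes the respective correlations were 0.178, -0.122 and 0.195. Each of these correlations would have the opposite sign if the deposited ratios had already been turned by group. The respective numbers of members with the same sign on both arrays were 56, 39 and 46, or 61.5%, 42.9% and 50.5%, beside 59.1%, 44.6% and 51.9% of all genes.

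Other genes of the cytoskeleton were taken from a list outside the chosen symbols. Of 134 listed, 77 were measured, with 39 positive, 38 negative and a median of 0.01. None passed an adjusted p of 0.05 in limma, and 3 positive and 1 negative gene had an unadjusted p under 0.05. Palld, which organises actin bundles, was the negative one at -0.96 (SE 0.21, unadjusted p = 0.00190). Stmn1, which destabilises microtubules, stood at 0.83 (SE 0.19, unadjusted p = 0.00261), Pls1, a plastin of microvilli, at 0.71 (SE 0.26) and Klc4, a kinesin light chain, at 0.45 (SE 0.18).

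The labelled tissue could be checked only in part, since ratios carry no absolute level and none of the 7 thick ascending limb or 6 thin limb markers listed was measured. The 5 proximal tubule markers measured, which belong to the cortex and outer stripe, had mean levels from 0.39 to 0.54 in water-restricted mice, while control mice 1 to 3 stood at 0.22, -0.92 and -0.66. Their differences were 4 positive and 1 negative, with 3 of the positive ones at an unadjusted p under 0.05 in limma. Erythroid markers, 3 of 4 measured, were all negative. The part of these differences in the member values was not tested.

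Spot values on 11 arrays had an SD from 0.515 to 0.764, and that of mouse 2 in each group one of 1.21. Adjacent duplicate spots correlated at 0.362 to 0.684 within an array. After turning, the median over all genes ran from -0.065 to 0.079 on those 11 arrays and was 0.169 on the widest.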

How the data were processed

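The authors deposited log2 ratios for 31200 spots, per the file headers, as 15600 clones in 2 adjacent spots. For background correction, normalization, centring and numerator dye, the method is not given in the sources used here. Platform annotation gave 9191 clones 1 gene, 254 several and 6155 none, and clones of several or no gene were left out. Spots were averaged to clones and clones to genes. Mouse levels came from weighted least squares with a dye term, and arrays of an exchanged pair had weight 0.5. Groups were compared with limma 3.58.1 in R 4.3.3 (lmFit, eBayes) on 3 against 3 mouse levels, with Benjamini-Hochberg adjustment over 6786 genes. Between-mouse and dye tests used the 12 arrays with the same weights, so residual error there is technical. The fit was tested on simulated data. Deviations of same-numbered mice from their group means correlated over genes at -0.015, -0.542 and -0.114. Each such pair also shared an array, whose error moves both fitted levels in opposite directions. These values therefore cannot decide whether the numbers pair the mice.

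Members and gene lists were chosen with earlier results of these data known. Named are the 15 members with the smallest p between groups, the most positive and most negative of each role group of 3 or more, up to 8 members for each of the dye and mouse tests, and 14 preset genes, of which 10 were measured. Tpm4, Kif18a, Tmsb10, Arpc5l, Capzb, Myl9, Myo1e, Myo1c, Arpc1b, Tubb3, Tubb2a-ps2 and Krt18 were added after their values were seen or outside that rule, as were the genes named from the other lists. Alternatives covered centring, scaling, weights, dye term, orientation, clone median, random mouse effects and left-out mice.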

Additional observations from a re-analysis of the deposited data

Results flagged for a closer look

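Among array values of 1 orientation, 14 of 70 sets of 6, or 20%, held a value far from the other 5. The 70 sets are those of the named members, some named for extreme values, and of the members' median. Over all members the share was 16.5% and over all genes 13%, where chance gives about 1 in 20 for values of equal spread. On the widest array of the series, that of mouse 2 in each group, Actr6 was at 2.12 (others -0.10 to 0.48), Arpc4 at 1.91 (0.10 to 0.70), Myh9 at 0.80 (-0.71 to -0.24), Arpc1a at 0.66 (-0.26 to 0.05) and Capza2 at 0.44 (-0.30 to -0.08). On that of water-restricted mouse 3 against control mouse 1, Kif5b was at 2.12 (-0.20 to 0.46), Map1lc3a at 1.74 (0.05 to 0.43) and Tubb4b at 1.28 (-0.04 to 0.33). On water-restricted mouse 3 against control mouse 2, Tmsb4x was at -1.78 (-1.10 to -0.84) and Vim at 1.00 (-0.18 to 0.13) on its Alexa Fluor 647 array, and Map1lc3a at -0.57 (0.37 to 0.82) on its Alexa Fluor 546 array. The others were Actr3 at 1.79 for water-restricted mouse 1 against control mouse 2 (0.70 to 1.07), Myo9a at 1.21 for mouse 1 against mouse 1 (-0.01 to 0.21) and Cnn1 at 0.49 for water-restricted mouse 1 against control mouse 3 (0.76 to 0.88).

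The group contrast differed between dye orientations for 14 members in limma's test of the dye term. The terms were 1.04 for Capzb, 0.72 for Dync1h1, 0.70 for Myl6, 0.58 for Dync1li1, 0.57 for Arpc5, 0.48 for Krt8, 0.44 for Krt19, 0.43 for Tmsb10, 0.40 for Actr8, 0.38 for Krt7, 0.28 for Tmsb4x and 0.27 for Arpc5l. Those of Actr3 and Capza2 were negative, at -0.45 and -0.29.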

How the results depend on the processing

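Under 18 alternatives the absence of a called member between groups ended only with random mouse effects, where 3 members passed in limma and 2.06% of all genes did. They were Tmsb4x at -0.79 (adjusted p = 0.00659), Cnn1 at 0.59 (adjusted p = 0.00964) and Tubb2b at 0.63 (adjusted p = 0.0107). This fit estimated 1 ratio of mouse to array variance, 0.1, over all genes and assumed it for every gene. Members at an unadjusted p under 0.05 numbered 9, and 4 on the Alexa Fluor 546 arrays, 17 on the Alexa Fluor 647 arrays, 18 on the exchanged pairs alone, 5 with deposited signs kept, 15 with random mouse effects, 8 with the mouse number as a replicate block, and 4 to 9 with 1 mouse left out, 4 being without water-restricted mouse 3. Those 9 members kept their sign in 17 of 17 alternatives other than kept signs. They were chosen by p in these same arrays, so a kept sign is no separate support. Without a dye term or with the replicate block, their differences equalled the main ones, so those settings could not turn a sign. Members named by the rule above changed sign in 61 of 612 values compared with the main fit. In 52 of these, neither side had an unadjusted p under 0.05 in limma, and those are not listed. The others follow. With deposited signs kept, Tmsb4x turned to 0.284, Cnn2 to 0.197, Tubb2b to -0.154, Map1lc3a to -0.063, Actr6 to -0.010, Dync1h1 to 0.721, Arpc5 to 0.568 and Actr8 to 0.402. Myl6 turned to -0.708 on the Alexa Fluor 647 arrays. Between mice 3 members were called without the widest array. For the dye term 14 were called, 8 with median centring, 8 with equal weights, 0 on the exchanged pairs alone and 0 to 0 with 1 mouse left out, where fewer arrays remain. The causes were not tested. The between-mice test was not run on single orientations, exchanged pairs or random effects, nor the dye test on single orientations, without a dye term or with random effects.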
